A study of Mus musculus with 9 samples.

Results

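The genes described here are 46 members of the transforming growth factor beta (TGF-beta), activin and bone morphogenetic protein (BMP) signalling system, taken by symbol from a fixed list of ligands, latency proteins, receptors, antagonists, SMAD proteins and target genes. All 46 were found among the 47729 genes of the table, and 44 of them were expressed highly enough to be tested. They were measured by mRNA sequencing in cultured synovial fibroblasts, the matrix-producing cells of the joint lining, in a mouse model of gout in which monosodium urate (MSU) crystals are injected into paws. The question of the study was how fibroblasts differ between joints exposed to crystals once, joints exposed again, and joints never exposed.

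The cells came from collagenase-digested paws of wild-type BALB/c mice and were grown for 5 passages before RNA was taken. The naive group (3 libraries) came from joints with no injection. The non-primed group (3 libraries) came from right paws that received MSU once, on day 9. The primed group (3 libraries) came from left paws that received MSU on day 0 and again on day 9. Samples of all 3 groups are labelled day 18. The injected paws may come from the same mice, 1 paw for each group, so paw side and number of injections cannot be told apart, and the labels used here give no age. The libraries are called naive 1 to 3, non-primed 1 to 3 and primed 1 to 3, and the p-values below measure only the spread between these samples.

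TGF-beta is secreted as a latent complex, in which latent TGF-beta binding proteins tether it to the extracellular matrix until it is released. The Ltbp genes encode this family, of which the Ltbp2 product is an exception that binds elastic fibres rather than latent TGF-beta. Released TGF-beta and activins signal through paired serine/threonine kinase receptors to SMAD2 and SMAD3, and BMPs through related receptors to SMAD1 and SMAD5, in each case with SMAD4 as the shared partner. Secreted antagonists such as noggin and follistatin, and the inhibitory SMADs, restrain the pathway, which in fibroblasts is known for its control of matrix production.

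In each of the 4 genes for latent TGF-beta binding proteins, all 3 naive libraries lay above all 3 non-primed libraries, as they did in 10.3% of all genes tested; they lay above all 3 primed libraries in 2 of the 4, against 8.18% of all genes. The ligand genes with the largest positive differences from naive cultures were Inhbb, which encodes the subunit of activin B, and Bmp5, which encodes a BMP ligand. For these 6 genes the 250 bases before the RefSeq start site are printed 5′ to 3′ on the coding strand (GRCm38.p6; for Ltbp1 and Ltbp4, which have several listed starts, the window nearest to the annotated gene start). They are shown because the results turn on these genes, and so that a reader can see the letters around their starts. Capitals mark CAGAC on either strand (GTCTG on the printed strand), the short element recognised by SMAD3 and SMAD4.
Ltbp1, chr17:75005279-75005528, plus strand: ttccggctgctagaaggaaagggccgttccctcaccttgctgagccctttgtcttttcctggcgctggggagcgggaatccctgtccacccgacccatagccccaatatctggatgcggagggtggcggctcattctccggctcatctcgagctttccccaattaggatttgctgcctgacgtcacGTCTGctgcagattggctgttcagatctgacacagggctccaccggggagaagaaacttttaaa
Ltbp2, chr12:84876492-84876741, minus strand: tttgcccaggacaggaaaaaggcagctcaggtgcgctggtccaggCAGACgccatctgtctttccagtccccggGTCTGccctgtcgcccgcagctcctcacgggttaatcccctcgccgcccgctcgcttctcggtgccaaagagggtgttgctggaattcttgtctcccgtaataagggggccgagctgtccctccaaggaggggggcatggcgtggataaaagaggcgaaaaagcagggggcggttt
Ltbp3, chr19:5740650-5740899, plus strand: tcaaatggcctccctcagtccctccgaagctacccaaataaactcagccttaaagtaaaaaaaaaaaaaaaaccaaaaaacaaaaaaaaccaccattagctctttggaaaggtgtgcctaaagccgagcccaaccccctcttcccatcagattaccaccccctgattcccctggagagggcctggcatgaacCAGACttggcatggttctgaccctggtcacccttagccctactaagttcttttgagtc
Ltbp4, chr7:27337613-27337862, minus strand: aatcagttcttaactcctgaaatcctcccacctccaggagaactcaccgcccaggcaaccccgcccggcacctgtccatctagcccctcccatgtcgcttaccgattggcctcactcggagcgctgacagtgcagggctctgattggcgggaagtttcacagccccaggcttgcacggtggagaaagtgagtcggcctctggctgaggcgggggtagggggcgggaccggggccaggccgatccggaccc
Inhbb, chr1:119422249-119422498, minus strand: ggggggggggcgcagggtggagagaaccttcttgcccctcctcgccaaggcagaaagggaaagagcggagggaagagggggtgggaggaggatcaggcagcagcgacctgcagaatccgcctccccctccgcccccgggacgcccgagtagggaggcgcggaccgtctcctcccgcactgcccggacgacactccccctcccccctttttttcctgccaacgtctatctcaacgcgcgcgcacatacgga
Bmp5, chr9:75775115-75775364, plus strand: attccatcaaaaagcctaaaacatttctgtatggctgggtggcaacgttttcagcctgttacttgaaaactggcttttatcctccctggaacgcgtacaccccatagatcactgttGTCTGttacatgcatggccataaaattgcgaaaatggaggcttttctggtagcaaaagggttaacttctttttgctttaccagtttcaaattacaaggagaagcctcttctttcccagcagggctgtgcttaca

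The Ltbp2 window held 2 such matches and the windows of Ltbp1, Ltbp3 and Bmp5 held 1 each, while those of Ltbp4 and Inhbb held none. The letters GGCGCC, an element of BMP-responsive promoters that reads the same on both strands, were in none of the 6 windows, so the motifs did not overlap there. CAGAC occurred on either strand in 42.2% of the 32851 windows of this length in the RefSeq table and in 20 of the 40 windows belonging to members. GGCGCC occurred in 9.59% of all windows and in 9 of the 40. The table held windows for 31 of the 46 members and none for 15. These matches describe letters only and say nothing of binding.

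Values are rlog values, a regularised log2 scale on which 1 unit is a doubling and on which small counts are drawn towards the gene's mean. Differences are differences of group means on that scale, tested with limma over 15623 genes, and a gene passed at a Benjamini-Hochberg adjusted p below 0.05. In the comparison of non-primed with naive cultures, 0.141% of all genes tested passed, and 1 of the 44 members did: Ltbp3 fell (of all genes, 0.0256% fell), with 14 members at an unadjusted p below 0.05 against 15.4% of all genes. In the comparison of primed with naive cultures, 0.102% of all genes passed and no member did, with 14 members at an unadjusted p below 0.05 against 16.9% of all genes. Both comparisons share the 3 naive libraries, so their values are given side by side and are not independent of each other.

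The members leaned downward in the injected cultures, but the lean rested in part on 1 naive library. In non-primed cultures 29 of the 44 tested members had a lower mean than in naive cultures, with a median difference of -0.13, where 48.3% of all genes tested were lower and their median was 0.01. In primed cultures 29 of 44 were also lower, with a median of -0.19, where 50.2% of all genes were lower and their median was -0.00. Without naive 3, the counts of lower members were 20 and 24 and the medians were 0.02 and -0.07. With the mean level of the 14 tested macrophage markers as a covariate, the counts were 20 and 21 and the medians 0.10 and 0.03. These markers were themselves higher in the injected cultures, so that fit cannot tell macrophage content from injection.

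Groups without any overlap were counted next. The non-primed and naive libraries did not overlap in 14 members, 11 lower and 3 higher in non-primed cultures, where the share over all genes was 21.9% (10.3% lower and 11.6% higher). The primed and naive libraries did not overlap in 11 members, 7 lower and 4 higher, where the share was 17.1% (8.18% lower and 8.97% higher). With 3 libraries a group an exact permutation test cannot give a p below 0.1, so no exact test is reported.

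**Figure D1:**
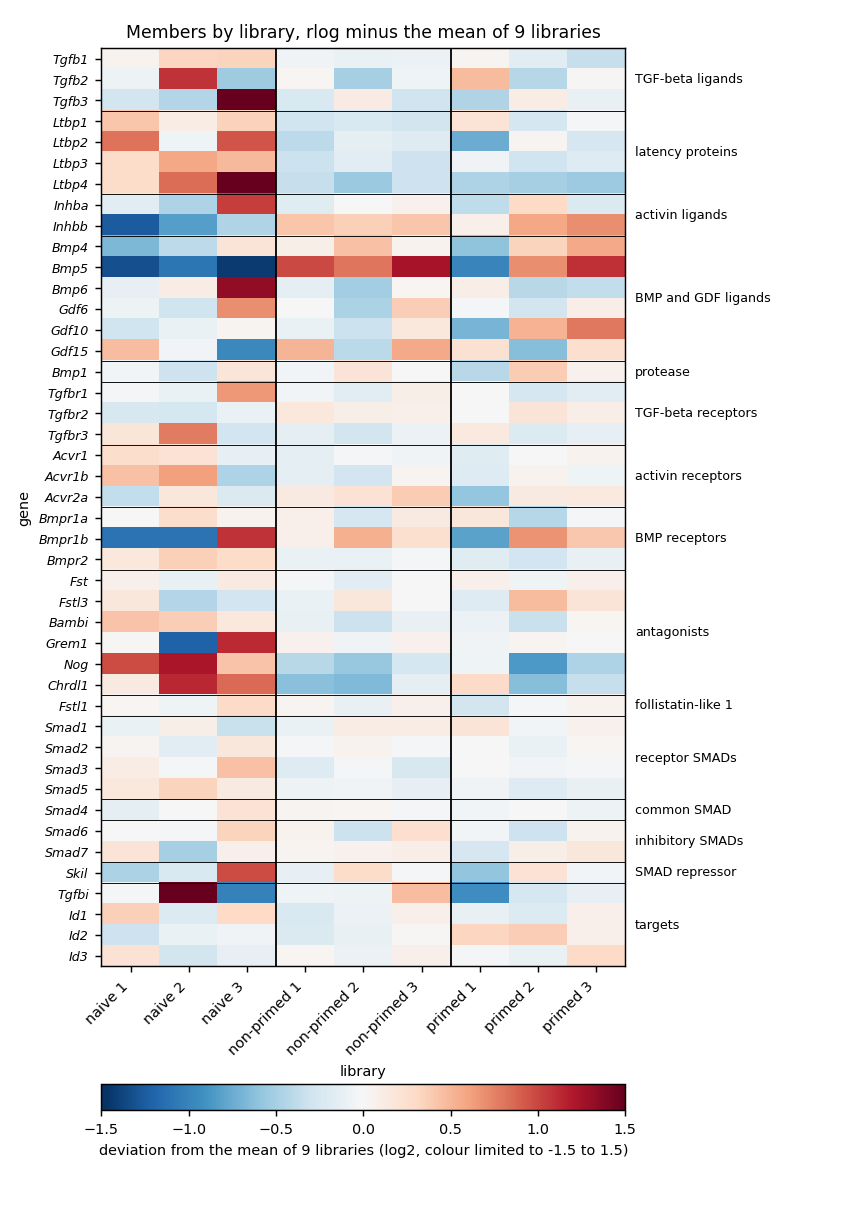
Heat map of the members in the 9 libraries, each row a gene, ordered by role and coloured by its rlog value minus the mean of its 9 values (log2 units). Ltbp3, Ltbp4 and Nog are above their mean in the naive libraries and below it in the injected ones, Inhbb and Bmp5 the reverse, except that Bmp5 in primed 1 is below its mean, at 5.99.

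The libraries differed in ways beyond the groups. Naive cultures varied most: the median standard deviation (SD) of the members was 0.29 for naive cultures, 0.13 for non-primed and 0.20 for primed ones, where over all genes it was 0.22, 0.10 and 0.14. Naive 3 held the highest value of the 9 for 17 of the 44 members, and for 25.1% of all genes. It held the highest or the lowest value for 54.5% of the members and 51.7% of all genes. Primed 1 lay outside the range of the other 5 injected libraries in 30 of 44 members (68.2%, against 44.9% of all genes). In 15 of the 44 it did so while within the naive range, against 28.4% of all genes. Over all genes primed 2 lay outside most often (51.8%), and it did so in 17 of 44 members (38.6%).

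Markers of fibroblasts were high in all libraries, and markers of macrophages were present and moved with the groups. The mean rlog of the 10 fibroblast markers was 14.1 to 14.9 across the 9 libraries. Of 15 macrophage markers 14 were tested, and the mean rlog of all 15 was 7.37, 9.46 and 7.04 in naive 1, 2 and 3, 9.40 to 9.88 in non-primed and from 9.14 to 10.3 in primed cultures. On the log2 scale, the summed level of the 15 macrophage markers ranged from 13.1 to 15.8 in naive, 15.8 to 16.3 in non-primed and 15.6 to 16.8 in primed cultures. None of the macrophage markers was at 0, and Cd163 was below the filter on low values. All 14 tested had a higher mean in both injected groups, and none passed the test (smallest limma adjusted p = 0.170 and 0.147). Naive 2 was the 1 naive library with macrophage markers in the range of the injected ones. The macrophage covariate thus nearly followed injection, and differences fitted with it rest largely on naive 2 against naive 1 and 3. They are not differences freed of macrophage content.

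The other marker lists were lower or uneven, and most of the tested muscle markers were higher in the injected cultures. Of 14 skeletal muscle markers 9 were tested, and Myod1 and Myog were below the filter. The mean rlog of all 14 was 3.39 to 3.61 in naive, 3.83 to 4.45 in non-primed and 3.54 to 4.68 in primed cultures. Their summed level on the log2 scale overlapped between groups, at 8.98 to 9.24, 8.95 to 9.52 and 8.69 to 9.72. Actn3, the muscle marker with the highest level, was lower in both injected groups. Non-primed and naive libraries did not overlap in any of the 9 tested (8 higher, 1 lower), against 21.9% of all genes. Primed and naive libraries did not overlap in 5 (4 higher, 1 lower), against 17.1%. None passed the test (smallest limma adjusted p = 0.0878 and 0.111). The 8 adipocyte markers, 6 of them tested, had a mean of 5.37 to 7.11 in naive cultures against 5.30 to 5.50 and 5.38 to 6.10, with Lep at 0. Means of the 5 lining markers (7.35 to 8.55), of the 8 endothelial markers (3.72 to 4.48, 5 tested, Cdh5 below the filter) and of the 7 Schwann cell markers (5.81 to 7.89, 6 tested) overlapped between groups. The 8 chondrocyte markers (5.41 to 6.36, 4 tested, Acan below the filter) and the 8 osteoblast markers (6.35 to 7.35, 6 tested, Bglap below the filter) had their highest mean in naive 2. In bulk RNA, fewer cells of a type and less RNA per cell cannot be told apart.

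Among the latency proteins, all 4 genes had lower means in both injected groups, counting Ltbp2, whose product does not bind latent TGF-beta. Ltbp3 (ENSMUSG00000024940, chr19:5740904-5758532, plus strand, GRCm38) encodes a binding protein that helps the latent complex to be secreted and deposited. Its values were 11.97, 12.27 and 12.18 in naive, 11.37, 11.52 and 11.38 in non-primed, and 11.64, 11.39 and 11.49 in primed cultures. All 6 injected libraries lay below all 3 naive ones. The mean was 12.14 ± 0.15 (SD, n = 3) in naive and 11.42 ± 0.08 (SD, n = 3) in non-primed cultures, a difference of -0.71 (standard error, SE, 0.101; limma adjusted p = 0.0483). In primed cultures the mean was 11.51 ± 0.12 (SD, n = 3), a difference of -0.63 with the same SE (limma adjusted p = 0.0757).

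The size of the Ltbp3 difference was steadier than its call. Across the alternatives the non-primed difference ranged from -0.81 to -0.65, and the limma adjusted p from 0.0116 to 0.275. The call was lost without non-primed 1 (adjusted p = 0.275), non-primed 2 (0.156), non-primed 3 (0.263), primed 2 (0.0743) or primed 3 (0.126), and with the replicate number as a block (0.0797). With the mean of the macrophage markers as a covariate the difference was -0.81 (limma adjusted p = 0.144). That covariate nearly followed injection, so the part of macrophage content in the Ltbp3 difference cannot be told apart.

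Ltbp1 (chr17:75005568-75392512, plus strand), which encodes the best known carrier of latent TGF-beta, read 12.40, 12.10 and 12.33 in naive, 11.69, 11.76 and 11.70 in non-primed, and 12.19, 11.72 and 11.95 in primed cultures. The non-primed libraries sat below the naive ones without overlap, while primed 1 reached into the naive range. The differences were -0.56 (SE 0.126, limma adjusted p = 0.125) and -0.32 (limma adjusted p = 0.255). With the macrophage covariate they were -0.36 and -0.11.

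Ltbp2 (chr12:84783212-84876532, minus strand), which encodes a family member that binds elastic fibres rather than latent TGF-beta, read 13.92, 13.04 and 14.04 in naive, 12.71, 12.95 and 12.90 in non-primed, and 12.36, 13.15 and 12.85 in primed cultures. Its naive 2 value lay just above the non-primed libraries and below primed 2. The differences were -0.81 (SE 0.278, limma adjusted p = 0.226) and -0.88 (limma adjusted p = 0.196). Without naive 2 they were -1.12 and -1.20 and passed (limma adjusted p = 0.0402 and 0.0332), and with array weights they passed as well (0.0352 and 0.0452). With the macrophage covariate they were -0.33 and -0.37. Its exons overlap D030025P21Rik on the other strand, where the differences were -0.44 and -0.50 (limma adjusted p = 0.414 and 0.315), and the strand setting of the counting was not given in the sources used here.

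Ltbp4 (chr7:27305136-27337692, minus strand), a binding protein that also organises elastic fibres, had the lowest level of the family per length and the widest difference. Its values were 5.51, 6.07 and 6.85 in naive, 4.89, 4.67 and 4.92 in non-primed, and 4.77, 4.74 and 4.68 in primed cultures. No injected library reached the lowest naive value. The differences were -1.32 (SE 0.292, limma adjusted p = 0.118) and -1.42 (limma adjusted p = 0.105), -0.88 and -1.07 with array weights, and -1.15 and -1.24 with the macrophage covariate.

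**Figure D2:**
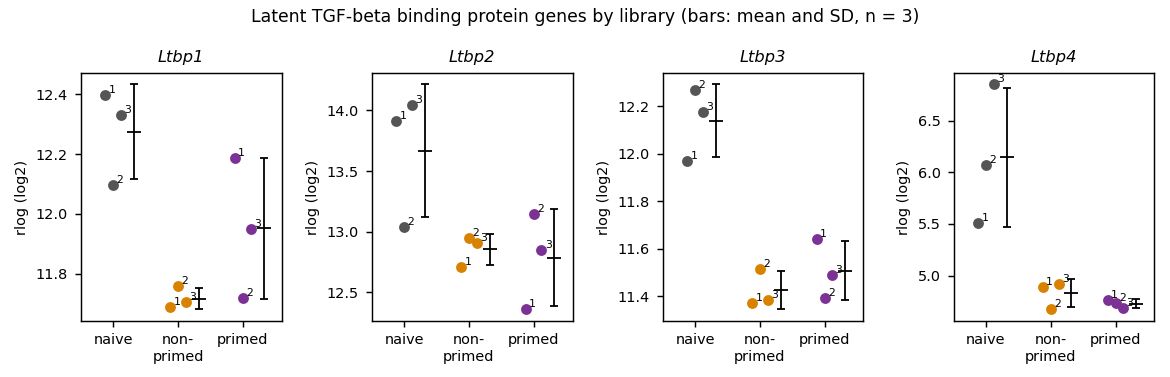
The rlog values (log2 scale, vertical axis) of the 4 latency protein genes in each group, with a point per library and a bar at the group mean with its SD. The 3 naive points lie above the 3 non-primed points in all 4 panels; primed points overlap the naive ones for Ltbp1 and Ltbp2.

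All 3 TGF-beta ligand genes had lower means in both injected groups, and none passed. Tgfb3 had the highest level of the 3, at 11.67, 11.51 and 13.51 in naive, 11.72, 12.08 and 11.65 in non-primed, and 11.50, 12.06 and 11.83 in primed cultures. Its naive mean was set by naive 3, and the differences of -0.42 and -0.43 (SE 0.461, limma adjusted p = 0.716 and 0.664) were 0.22 and 0.20 without that library. Tgfb1, the ligand made by most cell types, read 7.80, 8.06 and 8.07 in naive, 7.69, 7.64 and 7.65 in non-primed, and 7.78, 7.57 and 7.40 in primed cultures. Neither injected group overlapped the naive group, with differences of -0.32 and -0.40 (SE 0.136, limma adjusted p = 0.309 and 0.215). Tgfb2 ranged from 9.14 to 10.76 and its groups overlapped.

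Of the activin subunits, Inhbb stood higher in the injected cultures and Inhba did not. Inhbb (chr1:119415465-119422248, minus strand) read 9.54, 9.96 and 10.34 in naive, 11.20, 11.15 and 11.21 in non-primed, and 10.87, 11.37 and 11.49 in primed cultures. Every injected library exceeded every naive one. The means were 9.95 ± 0.40, 11.19 ± 0.04 and 11.24 ± 0.33 (SD, n = 3 each), with differences of 1.24 (SE 0.210, limma adjusted p = 0.0642) and 1.30 (limma adjusted p = 0.0764).

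The Inhbb difference missed the threshold in both comparisons and passed it under some alternatives. With the replicate number as a block the primed difference passed (limma adjusted p = 0.0395). Both differences passed without naive 2 (0.0484 and 0.0429), without naive 3 (0.0201 and 0.0222) and without primed 1 (0.0491 and 0.0391). They ranged from 1.04 to 1.49 and from 1.09 to 1.73 over all alternatives and were 1.31 and 1.38 with the macrophage covariate. Inhba, which encodes the activin A subunit, ranged from 8.14 to 9.65 with its highest value in naive 3, and differed by -0.18 and -0.24 (SE 0.354).

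The BMP and GDF (growth differentiation factor) ligands were led by Bmp5. Bmp5 (chr9:75775364-75900310, plus strand) read 5.67, 5.90 and 5.55 in naive, 7.98, 7.78 and 8.22 in non-primed, and 5.99, 7.69 and 8.08 in primed cultures. The non-primed libraries formed a tight high group, and primed 1 lay just above the naive range, far from primed 2 and 3. The differences were 2.29 (SE 0.461, limma adjusted p = 0.0933) and 1.55 (limma adjusted p = 0.178).

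The Bmp5 call depended on primed 1. Without it, the non-primed difference was 2.29 (limma adjusted p = 0.0150) and the primed difference 2.18 (limma adjusted p = 0.0193). Fitted on the 2 groups alone, the non-primed difference also passed (limma adjusted p = 0.0222). With the macrophage covariate the differences were 2.24 and 1.50. Between primed and non-primed cultures Bmp5 differed by -0.74 (SE 0.461), and by -0.11 without primed 1.

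Bmp4, the BMP ligand gene with the highest level, read 9.67, 9.96 and 10.55 in naive, 10.43, 10.79 and 10.41 in non-primed, and 9.75, 10.68 and 10.92 in primed cultures. Its groups overlapped, with differences of 0.48 and 0.39 (SE 0.315, limma adjusted p = 0.515 and 0.560). On leaving out 1 library the first ranged from 0.29 (without naive 1) to 0.72 (without naive 3), and the second from 0.15 (without primed 3) to 0.74 (without primed 1). Bmp6 ranged from 5.19 to 5.82 in 8 libraries and stood at 7.04 in naive 3. Gdf6 (8.82 to 9.99), Gdf10 (6.69 to 8.19) and Gdf15 (5.02 to 6.56) overlapped between groups. Bmp2 (1.36 to 2.07) and Gdf5 (2.34 to 3.13), a ligand known from joint development, were below the filter of a mean rlog of 3 and were not tested. Bmp1, a protease that processes procollagen and releases ligands despite its name, read 12.71, 12.44 and 12.93 in naive, 12.71, 12.94 and 12.75 in non-primed, and 12.33, 13.13 and 12.82 in primed cultures, with differences of 0.11 and 0.06 (SE 0.200).

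**Figure D3:**
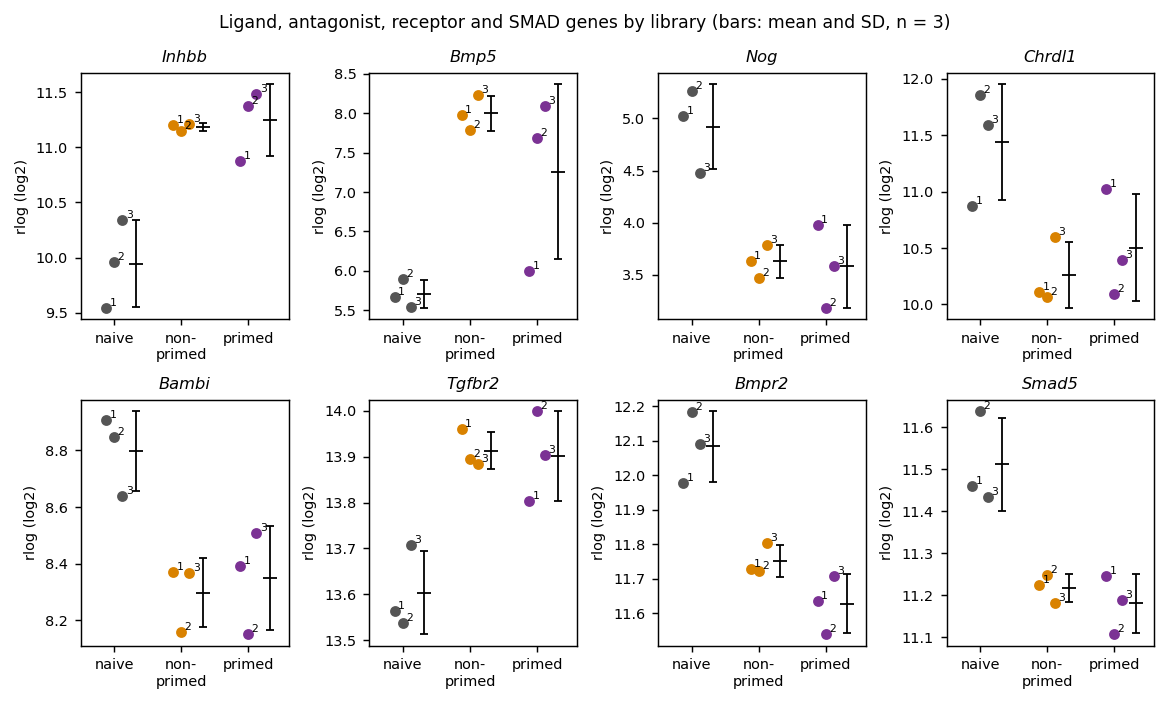
The rlog values (log2 scale, vertical axis) of selected ligand, antagonist, receptor and SMAD genes in each group, with a point per library and a bar at the group mean with its SD. Inhbb and Bmp5 are higher and Nog and Bmpr2 lower in the injected groups, and the primed 1 point of Bmp5, at 5.99, lies close to the naive points.

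Of the 6 antagonists tested, 4 had lower means and 2 higher means in each injected group, and none passed. Nog (chr11:89300638-89302332, minus strand) encodes noggin, which binds BMPs and keeps them from their receptors. It read 5.02, 5.27 and 4.47 in naive, 3.63, 3.47 and 3.78 in non-primed, and 3.97, 3.18 and 3.58 in primed cultures. No injected library reached the naive range, and the differences were -1.29 (SE 0.254, limma adjusted p = 0.0878) and -1.34 (limma adjusted p = 0.09995). Both passed without naive 3 (limma adjusted p = 0.0301 and 0.0312). With the macrophage covariate they were -1.52 and -1.59. Noggin's level lies close to the filter, where rlog understates differences.

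Chrdl1 (chrX:143285674-143394262, minus strand) encodes a chordin-like BMP antagonist and read 10.87, 11.86 and 11.59 in naive, 10.11, 10.07 and 10.60 in non-primed, and 11.02, 10.10 and 10.39 in primed cultures. Primed 1 again lay in the naive range. The differences were -1.18 (SE 0.302, limma adjusted p = 0.150) and -0.94 (limma adjusted p = 0.201). Bambi, a decoy receptor without a kinase, read 8.91, 8.85 and 8.64 in naive, 8.37, 8.16 and 8.37 in non-primed, and 8.39, 8.15 and 8.51 in primed cultures. Neither injected group overlapped the naive group, with differences of -0.50 (SE 0.130, limma adjusted p = 0.156) and -0.45 (limma adjusted p = 0.173).

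The remaining antagonists did not separate the groups. Fst encodes follistatin, which captures activins, and had the narrowest spread of the group: 10.86, 10.67 and 10.92 in naive, 10.77, 10.63 and 10.78 in non-primed, and 10.86, 10.72 and 10.86 in primed cultures. Its differences were -0.09 and -0.01 (SE 0.0897). Fstl3, a follistatin relative, ranged from 8.26 to 9.17, with differences of 0.21 and 0.35 (SE 0.204, limma adjusted p = 0.666 and 0.413). Grem1, a BMP antagonist of stromal cells, ranged from 8.59 to 10.92 among the 3 naive libraries and from 9.75 to 9.87 among the 6 injected ones. Fstl1, a secreted glycoprotein of mesenchymal cells, was the most strongly expressed member, at 16.68, 16.58 and 16.94 in naive, 16.69, 16.54 and 16.72 in non-primed, and 16.37, 16.62 and 16.70 in primed cultures, and its groups overlapped (differences -0.09 and -0.17, SE 0.196).

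Among receptors, the type II TGF-beta receptor gene was higher and the type II BMP receptor gene lower in injected cultures, by small amounts that did not pass. Tgfbr2 (chr9:116084293-116175360, minus strand), the receptor that binds TGF-beta first, read 13.56, 13.54 and 13.71 in naive, 13.96, 13.90 and 13.88 in non-primed, and 13.80, 14.00 and 13.90 in primed cultures. All injected libraries exceeded all naive ones, with differences of 0.31 and 0.30 (SE 0.0928, limma adjusted p = 0.192 in each). Bmpr2 (chr1:59763400-59879014, plus strand), the type II receptor for BMPs, read 11.98, 12.18 and 12.09 in naive, 11.73, 11.72 and 11.80 in non-primed, and 11.64, 11.54 and 11.71 in primed cultures. The 3 groups were stacked without overlap, with differences from naive of -0.33 (SE 0.0796, limma adjusted p = 0.133) and -0.46 (limma adjusted p = 0.0866). Without naive 2 the primed difference was -0.41 (limma adjusted p = 0.0495).

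Of the other receptors, Bmpr1a, a type I BMP receptor with the highest level in its class, read 13.06, 13.32 and 13.10 in naive, 13.14, 12.81 and 13.19 in non-primed, and 13.23, 12.63 and 13.02 in primed cultures (differences -0.12 and -0.20, SE 0.166). Acvr2a, a type II activin receptor, read 10.74, 11.28 and 10.89 in naive, 11.24, 11.33 and 11.49 in non-primed, and 10.52, 11.24 and 11.25 in primed cultures (differences 0.38 and 0.04, SE 0.210). Neither separated the groups. Bmpr1b, another type I BMP receptor, was at 5.97, 5.97 and 8.16 in the naive libraries and between 6.28 and 7.75 in the injected ones. Tgfbr1 (10.13 to 11.02), Tgfbr3 (12.00 to 13.07), Acvr1 (10.24 to 10.68) and Acvr1b (8.73 to 9.82) overlapped between groups in both comparisons with naive cultures.

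The 7 SMAD genes, which encode the signal transducers, differed from naive cultures by -0.33 to 0.19. Smad5 (chr13:56703010-56742377, plus strand), a BMP transducer, read 11.46, 11.64 and 11.43 in naive, 11.22, 11.25 and 11.18 in non-primed, and 11.25, 11.11 and 11.19 in primed cultures. All 6 injected libraries lay below the naive ones, with differences of -0.29 (SE 0.0773, limma adjusted p = 0.157) and -0.33 (limma adjusted p = 0.128). Smad3, a TGF-beta transducer, narrowly did not overlap between naive (11.004 to 11.46) and non-primed cultures (10.78 to 10.996), and the difference was -0.33 (SE 0.117, limma adjusted p = 0.235). Smad1 (7.99 to 8.51) and Smad2 (10.77 to 11.10) overlapped.

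Smad4, the shared partner, stayed within 10.67 to 11.02 in the 9 libraries, with values of 10.67, 10.79 and 11.02 in naive, 10.84, 10.83 and 10.77 in non-primed, and 10.76, 10.81 and 10.73 in primed cultures (differences -0.01 and -0.06, SE 0.0934). Smad6, an inhibitory SMAD of the BMP branch, read 9.45, 9.44 and 9.79 in naive, 9.51, 9.14 and 9.71 in non-primed, and 9.42, 9.15 and 9.51 in primed cultures (differences -0.11 and -0.20, SE 0.171). Smad7, the other inhibitory SMAD, ranged from 8.63 to 9.32. Skil, a repressor that binds SMADs, read 10.32, 10.58 and 11.79 in naive, 10.68, 11.08 and 10.79 in non-primed, and 10.22, 11.02 and 10.77 in primed cultures, with its highest value in naive 3 (differences -0.05 and -0.23, SE 0.359). None of these 4 separated naive from injected cultures.

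Target genes gave no common direction. Id3, the target with the highest level, encodes an inhibitor of helix-loop-helix factors induced by BMPs and read 11.94, 11.45 and 11.60 in naive, 11.75, 11.64 and 11.80 in non-primed, and 11.69, 11.63 and 12.01 in primed cultures (differences 0.07 and 0.12, SE 0.143). Its relative Id2 read 7.78, 7.999 and 8.04 in naive, 7.87, 7.99 and 8.11 in non-primed, and 8.41, 8.47 and 8.17 in primed cultures. The primed libraries lay above the other 6, with a difference from naive of 0.41 (SE 0.129, limma adjusted p = 0.194). Id1 ranged from 8.11 to 8.70. Tgfbi, a matrix protein named for its induction by TGF-beta, varied most within a group: 10.77, 12.81 and 9.78 in naive, 10.72, 10.71 and 11.25 in non-primed, and 9.86, 10.54 and 10.67 in primed cultures, with a naive SD of 1.55. Macrophage markers were also highest among naive libraries in naive 2, the library at 12.81, and their part in the Tgfbi spread was not tested.

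**Figure D4:**
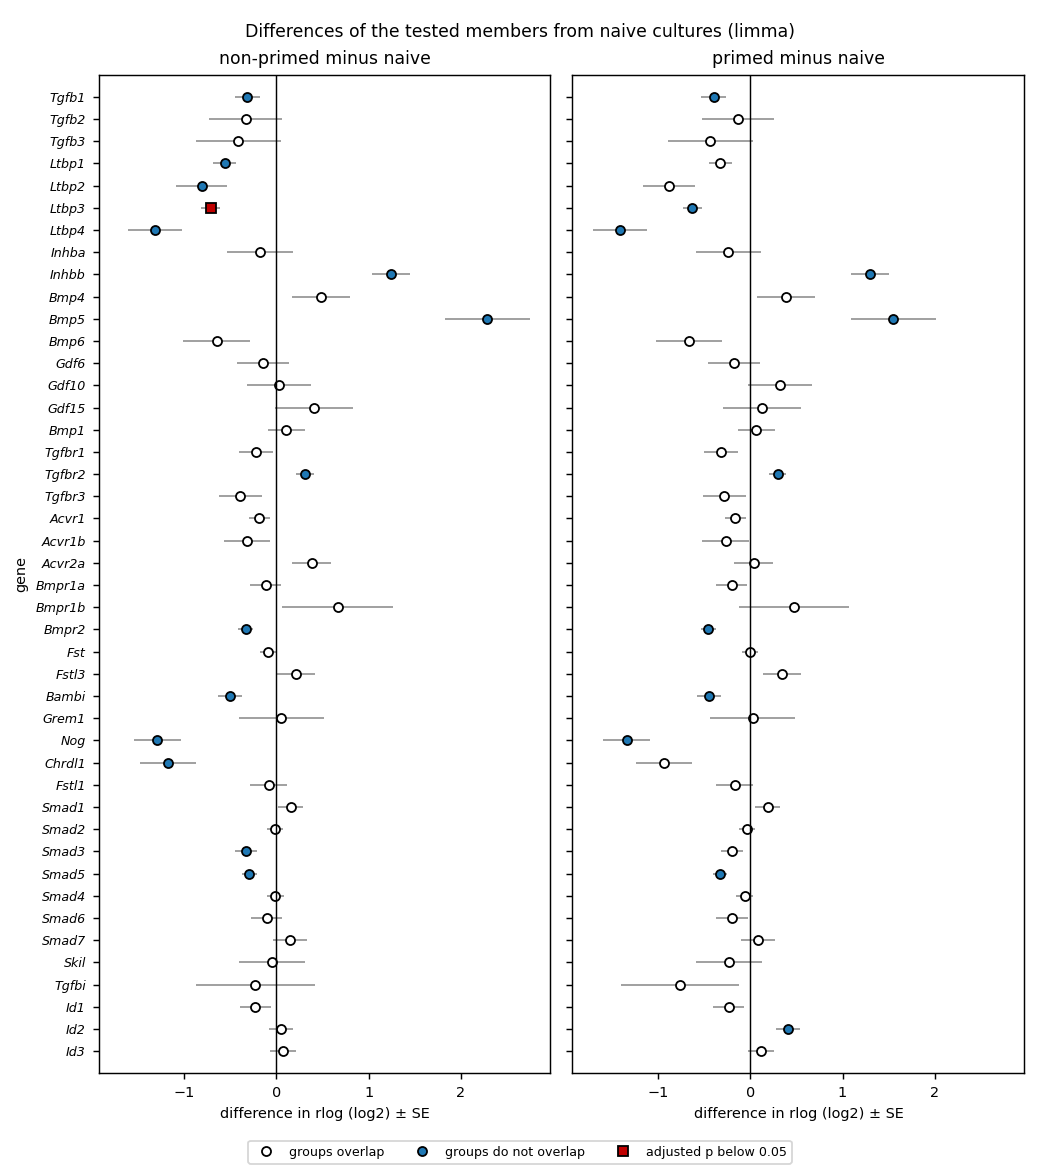
Differences of the tested members from naive cultures in rlog (log2 units, horizontal axis) with their standard errors, for non-primed (left) and primed cultures (right), ordered by role. Ltbp3 in non-primed cultures is the 1 point past the threshold; filled circles mark genes whose groups do not overlap, 14 on the left with Ltbp3 and 11 on the right.

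Primed and non-primed paws were both injected on day 9, and primed paws also on day 0, so these groups differ by the earlier injection and by the paw. Between them, limma called none of the 44 members and none of all genes tested (0%). At an unadjusted p below 0.05 there was 1 member, Id2, against 1.26% of all genes. The SE pools the spread of all 3 groups, including the wider naive one, and ignores any pairing. A fit to these 2 groups alone also called 0 members. The absence of calls does not show that the groups are alike. The groups did not overlap in 3 members, where the share over all genes was 11.6% (6.31% higher and 5.25% lower). Id2 was higher by 0.36 (SE 0.129, limma adjusted p = 1.00), Bmpr2 differed by -0.12 (SE 0.0796) and Tgfbi by -0.54 (SE 0.642). With array weights, 6 members passed (Acvr1, Gdf10, Id2, Ltbp1, Smad3 and Tgfb1), where 2109 of all genes also did. The median difference of the members was -0.03, and 28 of 44 were lower in primed cultures, or 20 of 44 without primed 1. Over all genes tested the median was 0.00085 and 49.7% were lower.

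Levels can be set beside each other only after the length of the transcripts is taken out, here as rlog minus the log2 of the exon length in kilobases. On that scale Fstl1 was highest at 14.35, followed by Id3 at 10.88, Tgfbr2 at 10.77, Bmpr1a at 10.39, Tgfb3 at 10.19 and Ltbp2 at 10.07. Ltbp1 (8.56) and Ltbp3 (8.51) were close to each other, and Inhbb stood at 8.70 against 5.93 for Inhba. Bmp5 was at 4.98, Nog at 3.28, Ltbp4 at 2.54, Gdf5 at 1.54 and Bmp2 at -0.24. The differences between Id3 and Tgfbr2 and between Ltbp1 and Ltbp3 were smaller than the range of each of these genes over the 9 libraries. Fstl1 and Id3 lay further apart than the range of either (0.57 and 0.56), and so did Gdf5 and Bmp2 (0.79 and 0.71).

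**Figure D5:**
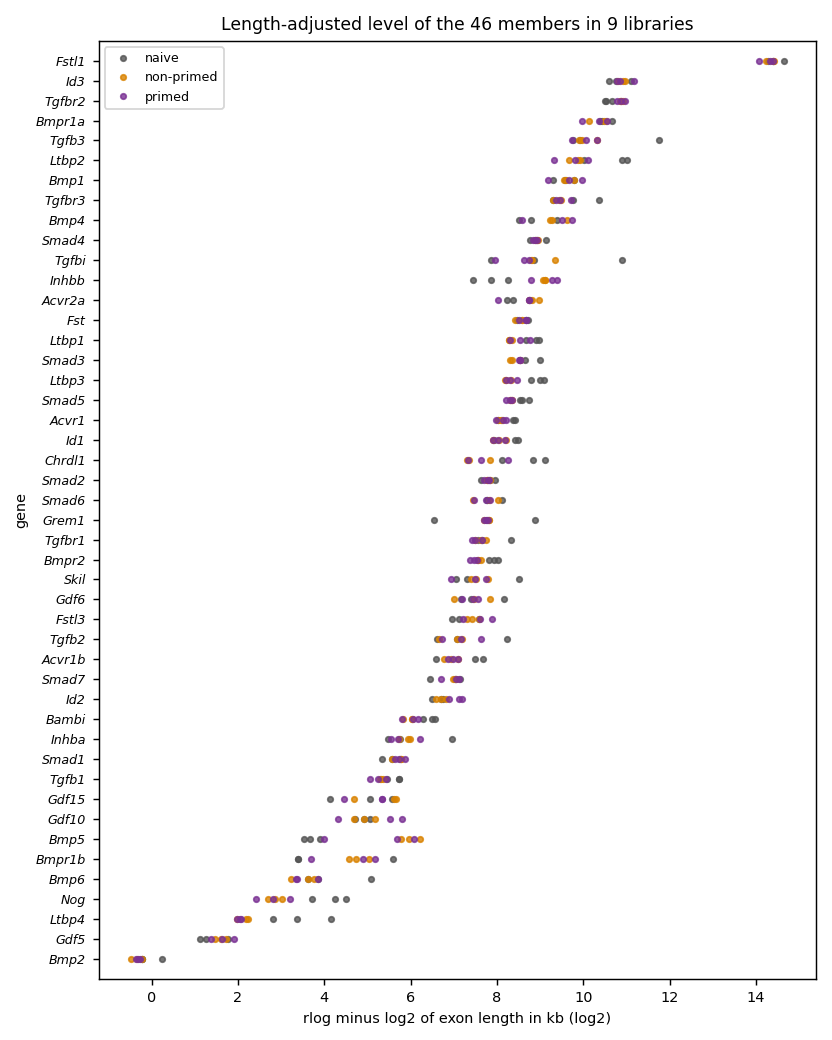
Length-adjusted level of each member (rlog minus log2 of exon length in kilobases, horizontal axis), with a point per library coloured by group and the genes ordered by their mean over 9 libraries. Fstl1 stands alone at the top with a mean of 14.35, and Bmp2 and Gdf5, which were not tested, are at the bottom.

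Another 116 genes of the same pathways, from a list of other ligands, activators, receptors, antagonists, SMAD partners and responsive genes, were read in the same fit. Of these 88 were tested and none passed in any comparison; at an unadjusted p below 0.05 there were 18, 8 and 0 of them for non-primed against naive, primed against naive and primed against non-primed cultures, where the shares over all genes were 15.4%, 16.9% and 1.26%. Higher means were found in 44, 45 and 45 of the 88. Groups did not overlap in 18, 5 and 5 (20.5%, 5.68% and 5.68%), where the shares over all genes were 21.9%, 17.1% and 11.6%. The responsive genes gave counts of their own. Of 23 TGF-beta responsive genes, 17 were higher in non-primed and 15 in primed than in naive cultures, with medians of 0.19 and 0.11. Of 10 tested BMP responsive genes 4 were higher in each, with medians of -0.11 and -0.13. Over all genes 51.7% and 49.8% were higher, with medians of 0.01 and -0.00. Of the 23 TGF-beta responsive genes, 4 and 1 were at a limma unadjusted p below 0.05. Their groups did not overlap in 5 and 1 (21.7% and 4.35%).

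The pathway genes with the smallest p-values did not pass either. Fbn2, a fibrillin of the microfibrils that hold latent complexes, read 8.82, 9.46 and 8.67 in naive, 10.73, 11.42 and 10.35 in non-primed, and 9.26, 10.81 and 10.89 in primed cultures, with primed 1 in the naive range (non-primed difference 1.85, SE 0.453, limma adjusted p = 0.140). Postn, which encodes the matrix protein periostin, read 15.61, 15.76 and 16.25 in naive, 16.86, 16.92 and 16.76 in non-primed, and 16.46, 17.35 and 17.03 in primed cultures. All injected libraries exceeded the naive ones for Postn, with differences of 0.97 and 1.07 (SE 0.274, limma adjusted p = 0.174 and 0.148). Dlx5, a BMP-responsive homeobox gene, differed by -0.64 and -0.65 (SE 0.180, limma adjusted p = 0.173 and 0.162). Bmp3, a BMP that opposes other BMPs, read 6.23, 8.39 and 5.60 in naive, 4.66, 4.23 and 4.51 in non-primed, and 5.33, 4.45 and 4.06 in primed cultures, a primed difference of -2.13 (SE 0.642, limma adjusted p = 0.184) that was -1.31 without naive 2. Between primed and non-primed cultures the smallest p-values belonged to Tgfb1i1 (-0.27), Usp15 (-0.11) and Mmp2 (0.30), each at a limma adjusted p of 1.00.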

How the data were processed

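Column-purified RNA went into a stranded mRNA kit, per the labels' protocols. The submitters' processing notes name the GRCm38 genome, DESeq2, featureCounts of Subread 1.6.1, STAR 2.5.4a and cutadapt 2.5. The annotation release, the counting strand and the rlog options were not given in the sources used here. What the authors deposited are rlog values on a log2 scale, for 47729 genes in 9 libraries. Without counts the depth is unknown, and precision rests on 3 libraries a group.

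Groups came from the sample titles. limma 3.58.1 in R 4.3.3 fitted 1 mean per group over all 9 libraries (6 residual degrees of freedom, variance trend, two-sided tests) to the 15623 varying genes with a mean rlog of at least 3; Benjamini-Hochberg adjustment covered these genes. The fit was tested on simulated data with the same spread in every group and no pairing. That test could not show the effect of unequal spread or of pairing. Coordinates and exon lengths are those of GENCODE M21 on GRCm38, and promoter windows are from RefSeq on GRCm38.p6.

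Per-library values are given for members that passed, for members whose groups did not overlap at an unadjusted p below 0.01 in at least 1 comparison with naive cultures, and for the member with the highest level of each role; Tgfb1, Id2, Tgfbi and Bmpr1b were added after their values were seen. Members and lists were chosen with earlier results of these data known. Same-numbered non-primed and primed libraries deviated together for numbers 1 and 2 (correlations 0.418 and 0.608). For number 3 the correlation was 0.100, just over the limit of 0.1, while non-primed 3 reached 0.275 with a primed library of another number. Same-numbered correlations with naive libraries were between -0.160 and 0.151. The reported fit did not pair the groups, so its standard errors and p-values ignore any pairing. The replicate block, an alternative, also applies the numbers to the naive libraries. The labels say that a number need not mark a mouse. Alternatives were other filters and priors, array weights, fits to 2 groups, a replicate block, median centring, quantile normalization, a macrophage covariate and leaving out each library.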

Additional observations from a re-analysis of the deposited data

How the results depend on the processing

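Alternative fits were made for the differences from naive cultures of the 11 members with the smallest p-values and of Ltbp2. These 24 results kept their direction in all 454 fits, but many of the fits could not have changed it. Other filters and priors, the 2-group fit, the replicate block and leaving out a library of the group not compared leave a difference as it is. Where groups did not overlap, leaving out 1 library cannot reverse it either. Of the 454 fits, 13 lost the call (all Ltbp3 in non-primed cultures) and 39 gained one. The number of members past the threshold in non-primed cultures was 0 with no filter, no variance trend, a robust prior, the replicate block, median centring, quantile normalization or the macrophage covariate, 9 with array weights, and 0 to 4 on leaving out 1 library; in the fit to the 2 groups alone it was 1, Bmp5 in place of Ltbp3. Over all genes the calls moved too: 22 in the fit reported, 621 with array weights, 355 without naive 2, 266 without naive 3 and 7 in the 2-group fit. In primed cultures it was 9 with array weights, 1 with the replicate block (Inhbb), and 0 to 4 on leaving out 1 library, where all genes gave 16 calls in the fit reported, 733 with array weights, 51 with the block, 356 without naive 2 and 196 without naive 3. Between primed and non-primed cultures it was 6 with array weights and 0 with the replicate block. The replicate block changed no other call of a member. With the macrophage covariate the median difference of the members was 0.0967 in non-primed and 0.0329 in primed cultures. On leaving out 1 library the medians ranged from -0.211 to 0.0151, from -0.222 to -0.0696 and, between primed and non-primed cultures, from -0.0438 to 0.00923.

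Small differences of the members named for their level changed sign. With the macrophage covariate, non-primed differences were 0.239 for Tgfb3, 0.0891 for Fst, 0.104 for Fstl1, 0.0205 for Smad4, 0.155 for Smad6 and 0.228 for Skil, and primed differences 0.272 for Tgfb3, -0.242 for Acvr2a, 0.191 for Fst, 0.0332 for Fstl1, 0.0852 for Smad6 and 0.0684 for Skil. With array weights, non-primed differences were 0.00321 for Bmpr1a, 0.105 for Smad4, 0.0326 for Smad6, 0.194 for Skil and -0.0433 for Id3, and primed differences 0.0141 for Tgfb3, 0.0233 for Fst, 0.00568 for Smad4, 0.00111 for Smad6 and 0.232 for Skil. With quantile normalization the primed difference of Bmp1 was -0.0175. Leaving out 1 library gave non-primed ranges of -0.775 to 0.223 (Tgfb3), -0.0206 to 0.222 (Bmp1), -0.162 to 0.0170 (Fstl1), -0.0937 to 0.0845 (Smad4), -0.238 to 0.0506 (Smad6), -0.335 to 0.396 (Skil) and -0.0358 to 0.211 (Id3), and primed ranges of -0.794 to 0.204 (Tgfb3), -0.123 to 0.276 (Bmp1), -0.0867 to 0.278 (Acvr2a), -0.0787 to 0.0466 (Fst), -0.141 to 0.0375 (Smad4) and -0.517 to 0.214 (Skil). The causes were not tested. Depth is unknown, so differences of members near the filter, such as Nog and Ltbp4, are limited by the shrinkage of rlog.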
